A study of Rattus norvegicus with 14 samples.

Results

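Testes taken from rat embryos at embryonic day 13 (E13) and kept in organ culture for 3 days were compared with testes taken fresh at embryonic day 14 (E14). The comparison used the 2 arrays titled as cultured E13 testis and the 2 titled as E14 testis, 4 of 14 arrays in all. Arrays were picked by title alone, but the comparison itself was chosen with earlier results of these data known. It covered 15866 of 15923 probe sets, every probe set that was not an Affymetrix control; each probe set holds the short probes for 1 transcript. The study profiled testis and ovary at E13, E14 and E16 as well as the cultured testes, with 2 single-channel arrays in each of 7 groups. The cultured explants sat on floating filters over CMRL 1066 medium with penicillin-streptomycin, insulin, glutamine, transferrin and albumin, renewed on day 2, and no hormone besides insulin is named. Fresh testes had no treatment, and neither a strain nor a transgene is named for any group. Each array held RNA pooled from 20 to 40 gonads, and the 2 pools of a group were independent. P-values rest on the spread between the 2 arrays of a group, taken over all 7 groups. That spread mixes pools with chip batches, which differed within each group as read from the chip labels. The number of arrays limits the precision. The 2 groups differed in culture, in the stage at dissection and in the days elapsed, and these cannot be told apart here. Fresh E16 testis, which had the same 3 days between E13 and collection, is therefore given beside the results.

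In the embryonic testis, Sertoli cells gather around germ cells to form cords and secrete anti-Müllerian hormone, while fetal Leydig cells appear between the cords. Leydig cells take up cholesterol, move it into mitochondria and turn it into androgens through a short chain of enzymes. The cells of the adrenal cortex arise close to the gonad, share the first steps of this chain and add their own enzymes, which make corticosteroids. In whole testes, a lower value can come from fewer cells of a type or from less RNA per cell, and the arrays cannot tell these apart.

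Several arrays stood apart before any comparison. Array medians were 68.6 and 66.4 intensity units in cultured testis and 67.4 and 61.8 in E14 testis. Across probe sets the cultured arrays correlated at r = 0.951, with 4.14% of probe sets at least 2-fold apart, against r = 0.970 and 2.26% for the E14 arrays. The ratio of 3′ to 5′ actin probes, which grows as RNA degrades, was 1.66 and 2.97 in cultured testis and 1.83 and 1.60 in E14 testis. For Gapdh probes the same ratio was 1.02 and 1.12 in cultured testis and 1.12 and 0.98 in E14 testis, so cultured replicate 2 stood apart for actin only. Xist, the RNA of the inactive X chromosome in female cells, read 151 and 4.8 in cultured testis and 269 and 1.9 in E14 testis, so replicate 1 of each group carried it. Both replicate 1 arrays shared a chip batch, as read from the form of their chip labels, and both replicate 2 arrays came from another chip series. Amh, the anti-Müllerian hormone gene, read 739 and 737 in cultured testis and 760 and 477 in E14 testis, as in a testis. Sry, the Y-linked switch of testis formation, read 13.4 and 20.2 in cultured testis, 45.9 and 37.1 in E14 testis and 163 and 185 in fresh E13 testis.

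Cultured testis was higher than E14 testis for 6 genes of the steroidogenesis and fetal Leydig cell list and 2 of the adrenal cortex list. It was also higher for 3 genes of the Sertoli cell list, 2 matrix genes and 2 cell cycle inhibitors or p53 targets. In limma's fit to all 14 arrays on the scale log2(intensity + 16), 44 probe sets passed an adjusted p under 0.05. Of these, 43 were higher in cultured testis (0.271% of all tested) and 1 was lower (0.0063%). An unadjusted p under 0.05 was reached by 5.57% of probe sets on the higher side and 2.8% on the lower side. The 2 arrays of one group lay wholly above those of the other for 22.1% of probe sets with cultured testis higher and for 15.4% with it lower. These shares are the background for every statement on overlap below. All 44 probe sets that passed were without overlap, so lack of overlap is no added support for a call. The median difference over all probe sets was 0.028 on the log2 scale, and 54.3% of them had a positive difference. Of the 44 probe sets, 37 carried 1 established gene symbol, and 29 of these were the brightest probe set of their gene. Without E14 replicate 2 the count was 13, without cultured replicate 2 it was 15 and without E14 replicate 1 it was 21, while without cultured replicate 1 it was 64, of which 29 were lower. With both Xist-carrying replicate 1 arrays left out, which leaves 1 array a group and takes the spread from the other groups, 26 passed (12 higher, 14 lower), and 10 of the 44 were among them. In the same fit, cultured testis against fresh E16 testis gave 11 probe sets higher (0.0693%) and 4 lower (0.0252%). Fresh E16 against fresh E14 testis gave 19 higher (0.12%), and the lower side of that contrast was not counted.

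**Figure D1:**
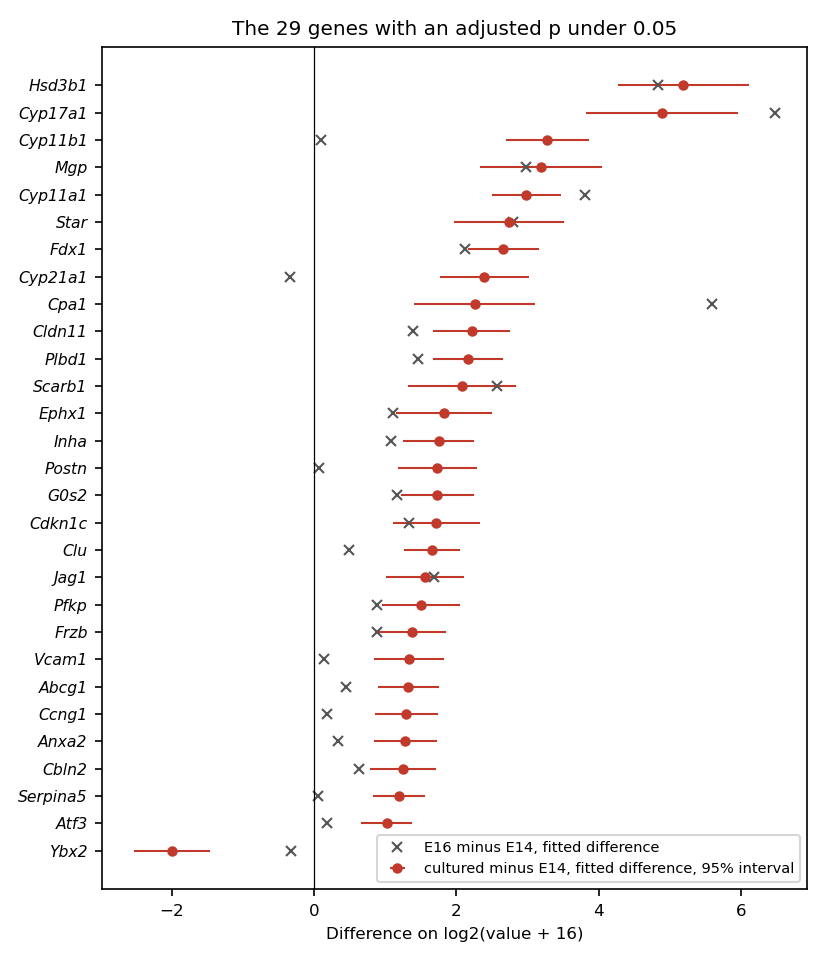
Fitted difference on log2(intensity + 16) for the 29 genes whose brightest probe set passed, with cultured minus E14 testis as red points with 95% intervals and fresh E16 minus E14 testis as crosses. Both differences share the E14 arrays. For Cyp11b1 and Postn the cross lies near 0 while the point lies at 3.28 and 1.73, and Ybx2 is the single red point below 0.

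Part of the genes for androgen synthesis rose in cultured testis. Of 13 measured steroidogenesis and fetal Leydig cell genes, 6 rose and 7 did not pass. The first steps of this chain are shared with the adrenal cortex, and which cell type gave these values was not tested. The list's median difference was 2.08, against 0.028 over all probe sets, and all 13 differences were positive. The list was chosen with earlier results of these data known, so this contrast with all probe sets is a description only. The median was 1.41 between the replicate 1 arrays and 2.71 between the replicate 2 arrays. For fresh E16 against E14 testis the list's median was 2.12, and that difference shares the E14 arrays.

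Scarb1, the receptor that takes up cholesterol from high-density lipoprotein, read 134 and 204 in cultured testis and 40.2 and 16.5 in E14 testis. Its difference was 2.08 ± 0.35 (SE; adjusted p = 0.036), its second probe set did not pass (1.64, adjusted p = 0.0969), and leaving out any 1 of the 4 arrays ended the call (adjusted p = 0.0517 and 0.349 without cultured replicate 1 or 2, and 0.0515 and 0.352 without E14 replicate 1 or 2). Star, which carries cholesterol to the inner mitochondrial membrane, read 192 and 320.5 in cultured testis and 28.1 and 19.5 in E14 testis. Its difference was 2.74 ± 0.35 (adjusted p = 0.00762), and its second probe set passed as well (2.64). The Star call was lost without cultured replicate 2 (adjusted p = 0.0981) or E14 replicate 2 (0.134). For both genes the cultured arrays lay above the E14 arrays with no overlap, as did the arrays of all 44 calls in their direction.

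The mitochondrial step that opens steroid synthesis was higher throughout. Cyp11a1, the enzyme that cuts the cholesterol side chain, read 488 and 408 in cultured testis and 45.0 and 39.8 in E14 testis. Its difference was 2.99 ± 0.22 (adjusted p = 0.000248), about 10.6-fold between group means. Fdx1, the ferredoxin that hands electrons to this enzyme, read 1394 and 1456 in cultured testis and 214 and 208 in E14 testis (difference 2.66 ± 0.23, adjusted p = 0.000394). A dimmer Fdx1 probe set passed too, with a difference of 2.20. In both genes the 2 arrays of a group stood close together and far from the other group.

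A pair of enzymes after that step rose as well. Hsd3b1, which turns pregnenolone into progesterone, read 2032 and 2543 in cultured testis and 19.2 and 95.6 in E14 testis. Its difference was 5.19 ± 0.42 (adjusted p = 0.000309), and near-identical members of the Hsd3b family can share its probes. Cyp17a1, which directs steroids towards androgens, read 438 and 773 in cultured testis and 4.3 and 3.9 in E14 testis (difference 4.90 ± 0.49, adjusted p = 0.00164). It kept its call under all 14 other settings tried. In limma's fit to the 4 arrays alone Cyp11a1 and Fdx1 passed (adjusted p = 0.0302 for each) and Hsd3b1 did not (0.092). With replicate number as a block in these 4 arrays, Cyp11a1 (0.0501), Fdx1 (0.0512) and Hsd3b1 (0.0501) did not pass. Cyp11a1, Fdx1, Hsd3b1 and Cyp17a1 each kept the call whichever 1 of the 4 arrays was left out. With both Xist-carrying arrays left out they passed as well (adjusted p = 0.0109, 0.0287, 0.0015 and 0.0344), while Star and Scarb1 did not (0.0564 and 0.0683).

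The remaining genes of this list had positive differences that did not pass. Insl3, the Leydig cell peptide that guides testis descent, read 174.9 and 336 in cultured testis and 39.7 and 13.2 in E14 testis (difference 2.68, adjusted p = 0.109). Lhcgr, the receptor for luteinizing hormone, read 81.7 and 86.3 in cultured testis and 41.2 and 51.7 in E14 testis (0.68, adjusted p = 0.562). Both cultured arrays exceeded both E14 arrays in each case, as for 22.1% of all probe sets, and Lhcgr was named after its values were seen. Hsd17b3, which makes testosterone from androstenedione, read 84.7 and 124 in cultured testis and 54.8 and 87.9 in E14 testis, so the groups overlapped (0.47, adjusted p = 0.786).

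**Figure D2:**
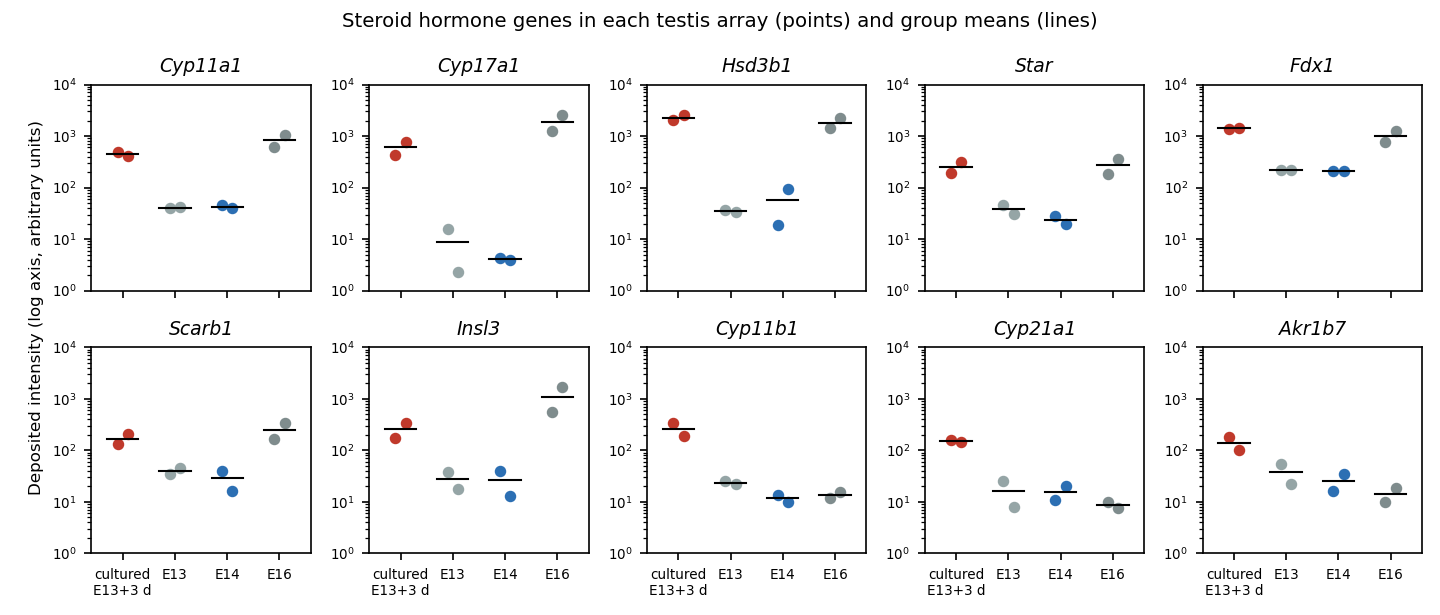
Deposited intensity (log axis, arbitrary units) of 10 steroid hormone genes in each testis array, as points, with group means as lines; groups run cultured E13, then fresh E13, E14 and E16. Cyp11a1 stands at 488 and 408 in the cultured arrays and at 45.0 and 39.8 in the E14 arrays, and Cyp11b1, Cyp21a1 and Akr1b7 are higher in both cultured arrays than in any fresh testis array.

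Against fresh E16 testis, Cyp11a1, Hsd3b1, Cyp17a1 and Insl3 did not pass. Cyp11a1 read 488 and 408 in cultured testis and 615 and 1051 in E16 testis (difference -0.83, adjusted p = 0.382), and Hsd3b1 read 2032 and 2543 in cultured testis and 1432 and 2203 in E16 testis (0.35, adjusted p = 0.979). Cyp17a1 was 438 and 773 in cultured testis and 1232 and 2566 in E16 testis, below it without overlap, and did not pass (-1.58, adjusted p = 0.512). Insl3 was 174.9 and 336 in cultured testis and 540.0 and 1659 in E16 testis, likewise without overlap (-1.90, adjusted p = 0.5). Fresh E13 testis, from which the cultures started, was at 39.5 and 41.1 for Cyp11a1 and at 36.1 and 33.0 for Hsd3b1, near the E14 values.

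The promoters of the steroid genes that passed were read from RefSeq's table for the rat assembly GRCr8, which held 4 of 8 (Cyp11a1, Cyp21a1, Fdx1 and Hsd3b1). Each window runs from 250 bases before to 50 bases after the transcription start. Letters of the site bound by steroidogenic factor 1 (Nr5a1), AAGGTCA or AAGGCCA on either strand, were searched. These genes had been picked because each was higher in cultured testis, so their shared direction was set by that choice. Fresh E16 minus E14 testis was 3.81 for Cyp11a1, 4.84 for Hsd3b1, 2.12 for Fdx1 and -0.33 for Cyp21a1. Cyp21a1 (chr20:4028141-4028440, plus strand) held 2 matches, which begin at -216 and -27 from the start. Fdx1 (chr8:61183596-61183895, minus strand) held 1 on the opposite strand at -209, and Cyp11a1 (chr8:67318415-67318714, plus strand) and Hsd3b1 held 0. A match is a description of letters: 10.5% of 33469 promoter windows held one, as did 6 of the 23 genes that passed and had a window. The sequences of 3 of these genes follow, with matched letters in capitals.
Cyp21a1: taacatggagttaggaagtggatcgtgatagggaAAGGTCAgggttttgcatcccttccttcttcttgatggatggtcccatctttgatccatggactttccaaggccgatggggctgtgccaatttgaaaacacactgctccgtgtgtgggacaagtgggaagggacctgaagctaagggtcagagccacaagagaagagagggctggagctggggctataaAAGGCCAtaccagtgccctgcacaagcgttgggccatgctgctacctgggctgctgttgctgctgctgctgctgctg
Fdx1: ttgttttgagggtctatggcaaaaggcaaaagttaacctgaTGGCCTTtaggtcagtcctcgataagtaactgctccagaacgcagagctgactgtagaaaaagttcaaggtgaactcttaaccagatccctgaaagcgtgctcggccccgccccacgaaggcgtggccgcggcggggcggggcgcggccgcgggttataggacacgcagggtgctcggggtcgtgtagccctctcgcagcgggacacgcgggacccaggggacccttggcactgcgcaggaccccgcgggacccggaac
Cyp11a1: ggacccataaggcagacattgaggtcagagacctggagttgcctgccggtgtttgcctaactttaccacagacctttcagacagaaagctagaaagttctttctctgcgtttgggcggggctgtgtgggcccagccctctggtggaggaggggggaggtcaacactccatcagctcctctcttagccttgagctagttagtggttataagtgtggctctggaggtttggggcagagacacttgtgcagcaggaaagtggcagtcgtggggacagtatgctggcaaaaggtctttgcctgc

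Enzymes of the adrenal cortex were high in cultured testis and low in every fresh testis array. Of 3 measured genes, 2 rose and 1 did not pass, with a median difference of 2.39. This list too was chosen with earlier results known. Cyp11b1, the adrenal enzyme that completes corticosterone, read 333 and 190.0 in cultured testis and 13.5 and 9.8 in E14 testis (difference 3.28 ± 0.27, adjusted p = 0.000309). Cyp21a1, the 21-hydroxylase needed for all corticosteroids, read 155 and 142 in cultured testis and 11 and 20.1 in E14 testis (2.39 ± 0.29, adjusted p = 0.0051). The arrays of the groups lay far apart for both genes. In limma's fit to the 4 arrays alone neither passed (adjusted p = 0.0776 for each). The Cyp21a1 call was lost without cultured replicate 2 (adjusted p = 0.0521), without E14 replicate 1 (0.0546), without both Xist-carrying arrays (0.15) and with an offset of 1 in place of 16 (0.0911). Cyp11b1 passed whichever 1 of the 4 arrays was left out and without both Xist-carrying arrays. Akr1b7, an aldose reductase abundant in the adrenal cortex, read 179 and 102 in cultured testis and 16.1 and 33.9 in E14 testis and did not pass (1.92, adjusted p = 0.0552).

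These enzymes also separated the cultures from fresh E16 testis. Cyp11b1 was 333 and 190.0 in cultured testis and 11.9 and 15.3 in E16 testis (difference 3.18, adjusted p = 0.000851). Cyp21a1 was 155 and 142 in cultured testis and 10.1 and 7.6 in E16 testis (2.73, adjusted p = 0.00416), and Akr1b7 passed this contrast as well (2.34, adjusted p = 0.0447). Fresh E13 testis read 24.8 and 21.8 for Cyp11b1, so no fresh testis array approached the cultured ones. Near-identical copies of the Cyp11b family can share probes, so the Cyp11b1 value is uncertain between copies.

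Markers of neurons, glia and adrenal chromaffin cells had mostly positive differences as well. Of 20 measured markers 0 passed in limma's test, and 17 had a positive difference, with a median of 0.37. At an unadjusted p under 0.05 in that test, 9 were higher and 1 lower, against 5.57% and 2.8% of all probe sets. Their summed intensity was 1420 and 1118 in cultured testis and 1057 and 899 in E14 testis. It was 1125 and 1026 in fresh E13 testis, so cultured replicate 2 lay between the E13 arrays, and 936 and 821 in fresh E16 testis. Th, the first enzyme of catecholamine synthesis, read 111 and 87.6 in cultured testis and 61.3 and 38.6 in E14 testis. Dbh, which makes noradrenaline, read 72.0 and 15.2 in cultured testis and 7.8 and 6.7 in E14 testis, and Chgb, a protein of secretory granules, read 69.3 and 59.5 in cultured testis and 25.5 and 21.5 in E14 testis. For each of these 3 genes both cultured arrays lay above both E14 arrays, as for 22.1% of all probe sets. The 3 genes were named after their values were seen. Nefm, a neurofilament gene, went the other way at 149 and 119 in cultured testis and 298 and 267 in E14 testis (-0.996, adjusted p = 0.28). No marker of the list was at 0, and the dimmest, Foxd3 of the neural crest, read 1.5 and 2.9 in cultured testis and 1.6 and 1.9 in E14 testis. The part of adrenal tissue in the values of the corticosteroid enzymes, and of steroid genes that the adrenal cortex shares, was not tested.

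Sertoli cell genes changed in part. Of 20 measured, 3 rose and 17 did not pass, 6 differences were negative and the median was 0.23 (0.15 without E14 replicate 2). At an unadjusted p under 0.05 in limma's test, 6 were higher and 3 lower, against 5.57% and 2.8% of all probe sets. Both cultured arrays lay above both E14 arrays for 8 and below them for 5, against 22.1% and 15.4% of all probe sets. Cldn11, a claudin of the Sertoli cell tight junctions, read 638 and 848 in cultured testis and 134 and 158 in E14 testis (difference 2.22 ± 0.25, adjusted p = 0.00293), while a dimmer probe set of it did not pass (0.67). Inha, the inhibin alpha subunit, read 492 and 626 in cultured testis and 150.1 and 157 in E14 testis (1.75 ± 0.23, adjusted p = 0.00762). Clu, a secreted chaperone abundant in Sertoli cells, read 159 and 200.3 in cultured testis and 45.7 and 44.8 in E14 testis (1.67 ± 0.18, adjusted p = 0.00264). None of the 3 genes overlapped between the groups, which was so for all 44 probe sets that passed. In fresh E14 ovary Cldn11 read 359 and 251, Inha 98.3 and 115 and Clu 41.4 and 48.6, so these genes were not read in testis alone. In limma's fit to the 4 arrays alone none of the 3 passed (adjusted p = 0.092 for Cldn11, 0.13 for Inha and 0.139 for Clu). Cldn11 and Clu passed whichever 1 of the 4 arrays was left out, and Inha was lost without cultured replicate 2 (adjusted p = 0.0986), E14 replicate 1 (0.0723) or E14 replicate 2 (0.104). Without both Xist-carrying arrays Clu passed (adjusted p = 0.0402), and Cldn11 (0.0583) and Inha (0.107) did not. Fgf9, a growth factor of early Sertoli cells, read 37.7 and 41.2 in cultured testis and 74.3 and 85.9 in E14 testis, lower without overlap and without passing (-0.79, adjusted p = 0.224). Amh did not pass, and its arrays overlapped (0.29, adjusted p = 0.886). Against fresh E16 testis, Clu was 159 and 200.3 in cultured testis and 62.0 and 78.5 in E16 testis (1.18, adjusted p = 0.0447), Cldn11 and Inha not passing (0.82 and 0.67).

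Inha was also the single member to rise of 34 genes of TGF-beta, BMP and activin signalling, whose median difference was -0.071 (0.11, with 21 positive, without cultured replicate 2). Transcription factors of the early gonad gave 0 calls among 16 genes, 3 positive differences and a median of -0.46. That median was -0.22 between the replicate 1 arrays and -0.75 between the replicate 2 arrays, and it was -0.092 without cultured replicate 2 and -0.77 without cultured replicate 1. Wt1, a regulator of gonad formation, read 527 and 377 in cultured testis and 812 and 692 in E14 testis (-0.73, adjusted p = 0.246), lower in both cultured arrays. Nr2f2, a nuclear receptor of interstitial cells, read 813 and 537 in cultured testis and 863 and 866 in E14 testis (-0.38, adjusted p = 0.792).

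Genes of the extracellular matrix included 2 that rose. Of 40 measured collagens, laminins and other matrix proteins, 2 rose, 38 did not pass and 31 had a positive difference, with a median of 0.38. Mgp, an inhibitor of calcification, read 554 and 761 in cultured testis and 47.4 and 67.9 in E14 testis (difference 3.19 ± 0.39, adjusted p = 0.0051). Postn, a matrix protein of connective tissue, read 646 and 1085 in cultured testis and 299 and 193 in E14 testis (1.73 ± 0.25, adjusted p = 0.0192). Neither gene overlapped between the groups, which was so for all 44 probe sets that passed. The Mgp call was lost without cultured replicate 2 (adjusted p = 0.0812) or E14 replicate 1 (0.0607), and the Postn call without cultured replicate 2 (0.134) or E14 replicate 2 (0.219). Without both Xist-carrying arrays Postn passed (adjusted p = 0.00588) and Mgp did not (0.108).

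The 2 genes differed in how they stood against the fresh ages. Mgp was 554 and 761 in cultured testis, 20.6 and 6.3 in E13 testis and 422 and 742 in E16 testis, and cultured minus E16 was 0.21 (adjusted p = 0.995). Postn was 646 and 1085 in cultured testis, 538 and 559 in E13 testis and 255 and 253 in E16 testis, and cultured minus E16 was 1.66 (adjusted p = 0.0447). Fresh testis was thus higher at E16 than at E13 for Mgp and lower for Postn, without overlap in either. Dcn, a small collagen-binding proteoglycan, read 590.0 and 480.2 in cultured testis and 174 and 176.5 in E14 testis without passing (1.52, adjusted p = 0.14). Col6a2, a chain of collagen VI, read 139 and 151 in cultured testis and 27.3 and 21.5 in E14 testis, also without passing (1.99, adjusted p = 0.327). Among 23 genes of matrix crosslinking and proteolysis 0 passed, with a median of 0.20 (0.033 without cultured replicate 2 and 0.093 without E14 replicate 1).

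Among 11 measured cell cycle inhibitors and p53 targets, 2 rose and 9 did not pass, and the median difference was 0.35. Cdkn1c, an inhibitor of cyclin-dependent kinases, read 2241 and 1581 in cultured testis and 745 and 419 in E14 testis (1.72 ± 0.28, adjusted p = 0.0314). Ccng1, a cyclin induced by p53, read 343 and 421 in cultured testis and 136 and 156 in E14 testis (1.30 ± 0.20, adjusted p = 0.0258). Both cultured arrays lay above both E14 arrays for each gene, and none of the 44 probe sets that passed overlapped. The Cdkn1c call was lost without cultured replicate 1 (adjusted p = 0.115), cultured replicate 2 (0.0901) or E14 replicate 2 (0.303), and the Ccng1 call without cultured replicate 2 (0.239), E14 replicate 1 (0.174) or E14 replicate 2 (0.152). Neither passed without both Xist-carrying arrays (adjusted p = 0.0711 for Cdkn1c and 0.195 for Ccng1).

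Of 26 genes that drive the cell cycle, 0 passed in limma's test, and 2 had a positive difference. At an unadjusted p under 0.05 in that test, 0 were higher and 7 lower, against 5.57% and 2.8% of all probe sets. The median was -0.36, with -0.16 between the replicate 1 arrays and -0.59 between the replicate 2 arrays, and without cultured replicate 2 it was -0.25 with 6 positive. Pcna, the sliding clamp of DNA replication, read 2161 and 1393 in cultured testis and 1879 and 2615 in E14 testis, so the groups overlapped (-0.35, adjusted p = 0.878). Cdk4, a kinase of the G1 phase, read 1114 and 1297 in cultured testis and 1492 and 1607 in E14 testis, lower without overlap but not passing (-0.36, adjusted p = 0.662).

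Ybx2 was the single probe set that fell. It encodes an RNA-binding protein of germ cells, and read 4.8 and 8.1 in cultured testis and 64.5 and 82.3 in E14 testis (difference -1.99 ± 0.24, adjusted p = 0.0051). It read 64 and 44.8 in fresh E13 testis and 50.5 and 60.2 in fresh E16 testis, so both cultured arrays lay below every fresh testis array. Cultured minus E16 was -1.67 (adjusted p = 0.0447), and the call against E14 was lost without E14 replicate 2 (adjusted p = 0.104) and without both Xist-carrying arrays (0.107). Of 4 measured genes of the germ cell list 0 passed, and all 4 differences were negative, with a median of -0.28. That median was -0.089, with 1 positive, without cultured replicate 2 and -0.48, with 1 positive, without E14 replicate 2. Kit, the receptor of stem cell factor, read 52.1 and 15 in cultured testis and 56.1 and 40.4 in E14 testis, with overlap (-0.47, adjusted p = 0.862). Prdm1, a transcriptional repressor active in germ cell precursors, read 79.0 and 79.5 in cultured testis and 114 and 83.2 in E14 testis (-0.25, adjusted p = 0.892). Of 3 meiosis genes 0 passed, with a median of -0.16 (0.025 without E14 replicate 2); they included Sycp3, a protein of the chromosome axis, at 47.2 and 32.5 in cultured testis and 41.0 and 60.6 in E14 testis.

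Cpa1, a secreted carboxypeptidase best known from the pancreas, read 199 and 210.0 in cultured testis and 40.2 and 21.7 in E14 testis (difference 2.26 ± 0.39, adjusted p = 0.0435). Its level in fresh E16 testis was far higher, at 1532 and 3182, and cultured minus E16 was -3.34 (adjusted p = 0.00943), so the cultured arrays lay between the fresh ages. Plbd1, a phospholipase B-like protein, read 209 and 247 in cultured testis and 40.3 and 36.0 in E14 testis (2.17 ± 0.22, adjusted p = 0.0021). In limma's fit to the 4 arrays alone Plbd1 did not pass (adjusted p = 0.0776). The Plbd1 call held whichever 1 of the 4 arrays was left out, and the Cpa1 call held in none of these cases (adjusted p = 0.104 and 0.307 without cultured replicate 1 or 2, and 0.121 and 0.395 without E14 replicate 1 or 2). Ephx1, which opens epoxides in the endoplasmic reticulum, read 141 and 281 in cultured testis and 45.1 and 45.0 in E14 testis (1.82 ± 0.31, adjusted p = 0.0377). That call was lost without cultured replicate 2 (0.297), E14 replicate 1 (0.174) or E14 replicate 2 (0.303).

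Single members rose in 3 lists of metabolism and stress. Pfkp, a phosphofructokinase of glycolysis, read 238 and 271 in cultured testis and 99.2 and 62.3 in E14 testis (difference 1.51 ± 0.25, adjusted p = 0.036). It was 1 of 25 hypoxia and glycolysis genes, whose median was -0.043 (0.032 without cultured replicate 2). Vcam1, an adhesion molecule for white blood cells, read 184 and 149 in cultured testis and 56.0 and 55.9 in E14 testis (1.34 ± 0.22, adjusted p = 0.036). It was 1 of 27 genes of inflammation and interferon response, of which 22 had a positive difference, with a median of 0.39. Atf3, a stress-induced transcription factor, read 21.0 and 21.5 in cultured testis and 2.4 and 2.3 in E14 testis (1.02 ± 0.16, adjusted p = 0.0281). It was 1 of 23 stress and immediate early genes, of which 18 were positive, with a median of 0.35. Leaving out any 1 of the 4 arrays ended each of these 3 calls, with adjusted p values of 0.0546 to 0.358 for Pfkp, 0.118 to 0.297 for Vcam1 and 0.073 to 0.244 for Atf3.

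Egr1, an immediate early transcription factor, read 268 and 663 in cultured testis and 81.3 and 57.1 in E14 testis and did not pass (2.38, adjusted p = 0.262), both cultured arrays being higher. Of 22 macrophage and white blood cell markers, measured beside the inflammation list, 0 passed and 18 were positive, with a median of 0.26 (0.15 without E14 replicate 2) and sums of 1393 and 1367 in cultured testis and 1085 and 1023 in E14 testis. Among them Fcer1g, a chain of immunoglobulin receptors, read 153 and 166 in cultured testis and 88.2 and 93.3 in E14 testis (0.71, adjusted p = 0.386), and Lyz2, a lysozyme, read 187 and 129 in cultured testis and 113 and 110.1 in E14 testis (0.43, adjusted p = 0.658). The part of white blood cells in the Vcam1 value was not tested.

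A further 7 genes passed that the rule for naming did not pick, and they are named here after their values were seen. Frzb, a secreted Wnt antagonist, passed with both of its probe sets, each at 1.38. G0s2, an inhibitor of fat breakdown, differed by 1.73, Jag1, a Notch ligand, by 1.56, and Abcg1, a cholesterol exporter, by 1.33, while 2 dimmer Abcg1 probe sets did not pass (0.16 and 0.084). Anxa2, a membrane-binding annexin, differed by 1.29, Cbln2, a secreted synapse organiser, by 1.25, and Serpina5, a protease inhibitor, by 1.19. Each of these calls was lost for at least 3 of the 4 arrays when they were left out in turn. In 5 more genes a dimmer probe set passed and the brighter one did not: for Stmn2, a neuronal tubulin-binding protein, the differences were 1.44 and 1.15 (adjusted p = 0.224 for the brighter), and for Htt, the huntingtin gene, 1.37 and 0.17 (0.936). The others were Lpcat3 at 1.24 and 1.22 (0.173), Aqp1 at 1.26 and 0.25 (0.878) and Vsnl1 at 1.15 and 0.75 (0.307). A further 5 probe sets that passed had no gene symbol, and 2 carried several symbols and are not named. The probe set with the lowest adjusted p in limma's test (1.47e-06) was among the latter. It read 443 and 318 in cultured testis and 1.3 and 0.7 in E14 testis, a difference of 4.53.

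**Figure D3:**
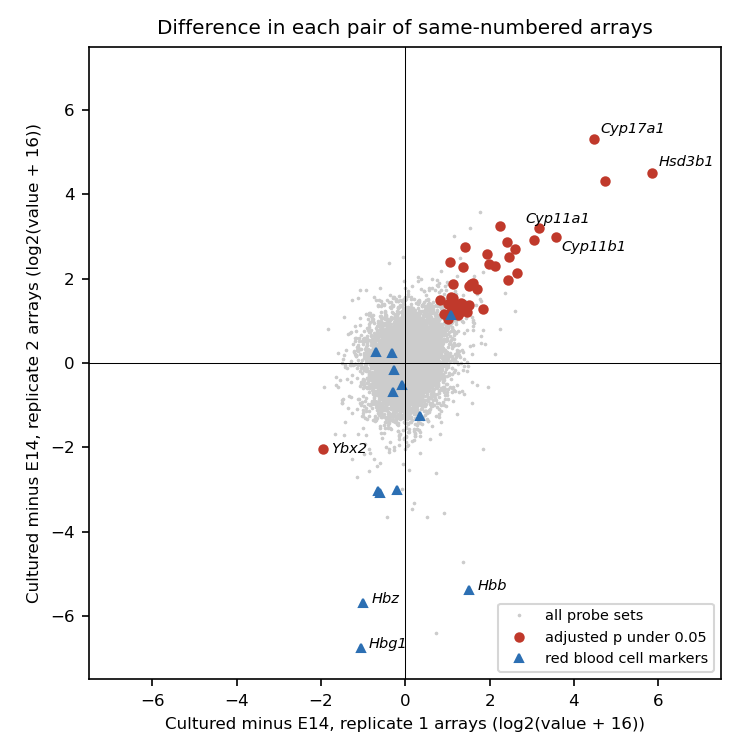
Cultured minus E14 difference on log2(intensity + 16) between the replicate 1 arrays (x axis) and between the replicate 2 arrays (y axis), for all probe sets (grey), those that passed (red) and red blood cell markers (blue triangles). Cyp17a1 and Hsd3b1 lie far from 0 on both axes, while Hbg1, Hbz and Hbb lie far below 0 on the y axis, where cultured replicate 2 enters.

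Red blood cell genes separated the 2 cultured arrays from each other. Of 13 measured markers 0 passed in limma's test, and 1 had a positive difference. At an unadjusted p under 0.05 in that test, 1 was higher and 6 lower, against 5.57% and 2.8% of all probe sets. Their summed intensity was 11696 and 1266 in cultured testis and 15202 and 18219 in E14 testis. Hbg1, an embryonic beta-like globin, read 2188 and 34.6 in cultured testis and 4585 and 5478 in E14 testis (difference -3.91, adjusted p = 0.321). Hbe1, another embryonic globin, read 4749 and 767 in cultured testis and 5483 and 6269 in E14 testis (-1.61, adjusted p = 0.445). Hbb, the adult beta globin, read 2421 and 13 in cultured testis and 837 and 1191 in E14 testis, so the cultured arrays lay on both sides of the E14 arrays. The list's median was -0.50, with -0.30 between the replicate 1 arrays and -1.25 between the replicate 2 arrays, and it was -0.30 without cultured replicate 2 and -1.07 without cultured replicate 1. With both Xist-carrying arrays left out, which leaves 1 array a group, Hbe1 (adjusted p = 0.00567) and Hbg1 (0.00365) passed.

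**Figure D4:**
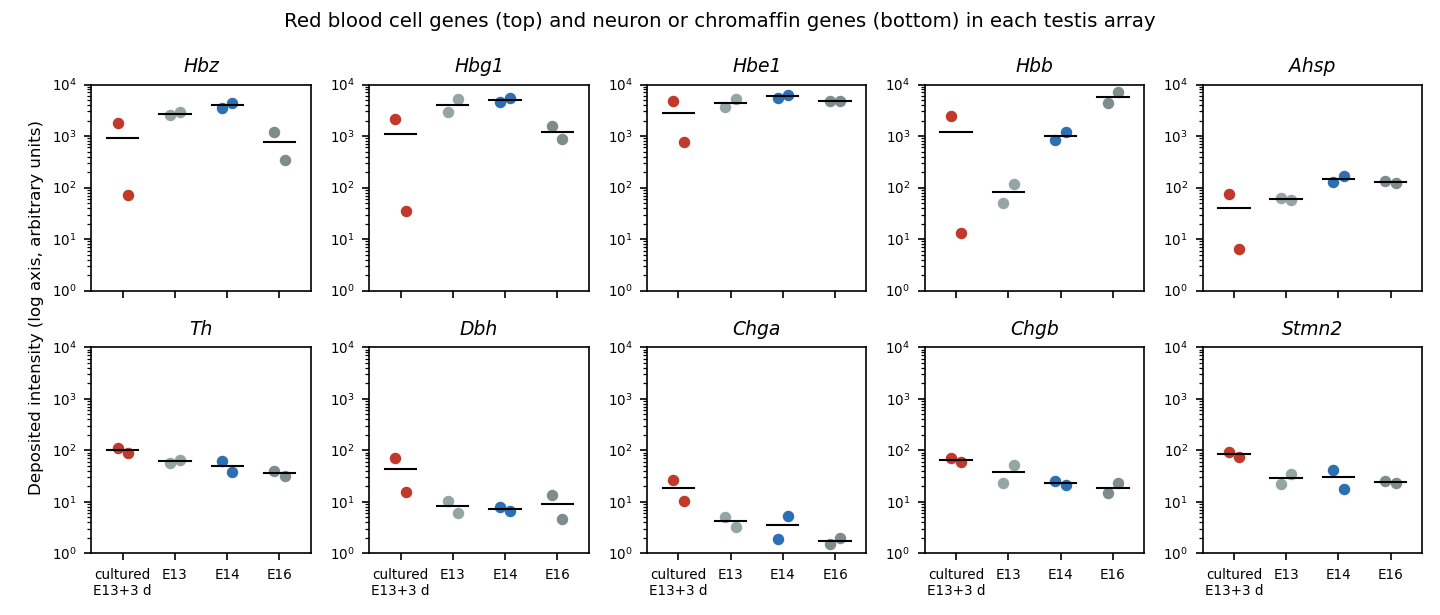
Deposited intensity (log axis, arbitrary units) of 5 red blood cell genes (top) and 5 neuron or chromaffin genes (bottom) in each testis array, as points, with group means as lines; groups run cultured E13, then fresh E13, E14 and E16. Cultured replicate 2 stands at 34.6 for Hbg1 and 13 for Hbb, below every fresh testis array, and both cultured arrays stand above the E14 arrays for Th, Dbh, Chga, Chgb and Stmn2.

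Lipid genes had small differences that mostly pointed upwards and did not pass. Of 18 genes of cholesterol synthesis and uptake 0 passed in limma's test, and 17 had a positive difference, with a median of 0.63. At an unadjusted p under 0.05 in that test, 11 were higher and 0 lower, against 5.57% and 2.8% of all probe sets. The median was 0.51 between the replicate 1 arrays and 0.62 between the replicate 2 arrays. Msmo1, a sterol demethylase, read 703 and 726 in cultured testis and 409 and 389 in E14 testis (0.82, adjusted p = 0.0827), and both cultured arrays were higher. Fdps, which makes farnesyl pyrophosphate, read 1014 and 1238 in cultured testis and 756 and 949.9 in E14 testis, also without overlap (0.40, adjusted p = 0.74). Of 20 genes of fatty acid synthesis and storage 0 passed and 16 were positive, with a median of 0.33 (0.16 without cultured replicate 2 and 0.21 without E14 replicate 2). Scd2, a stearoyl-CoA desaturase, read 1625 and 1940.2 in cultured testis and 1158 and 1027 in E14 testis (0.70, adjusted p = 0.229).

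**Figure D5:**
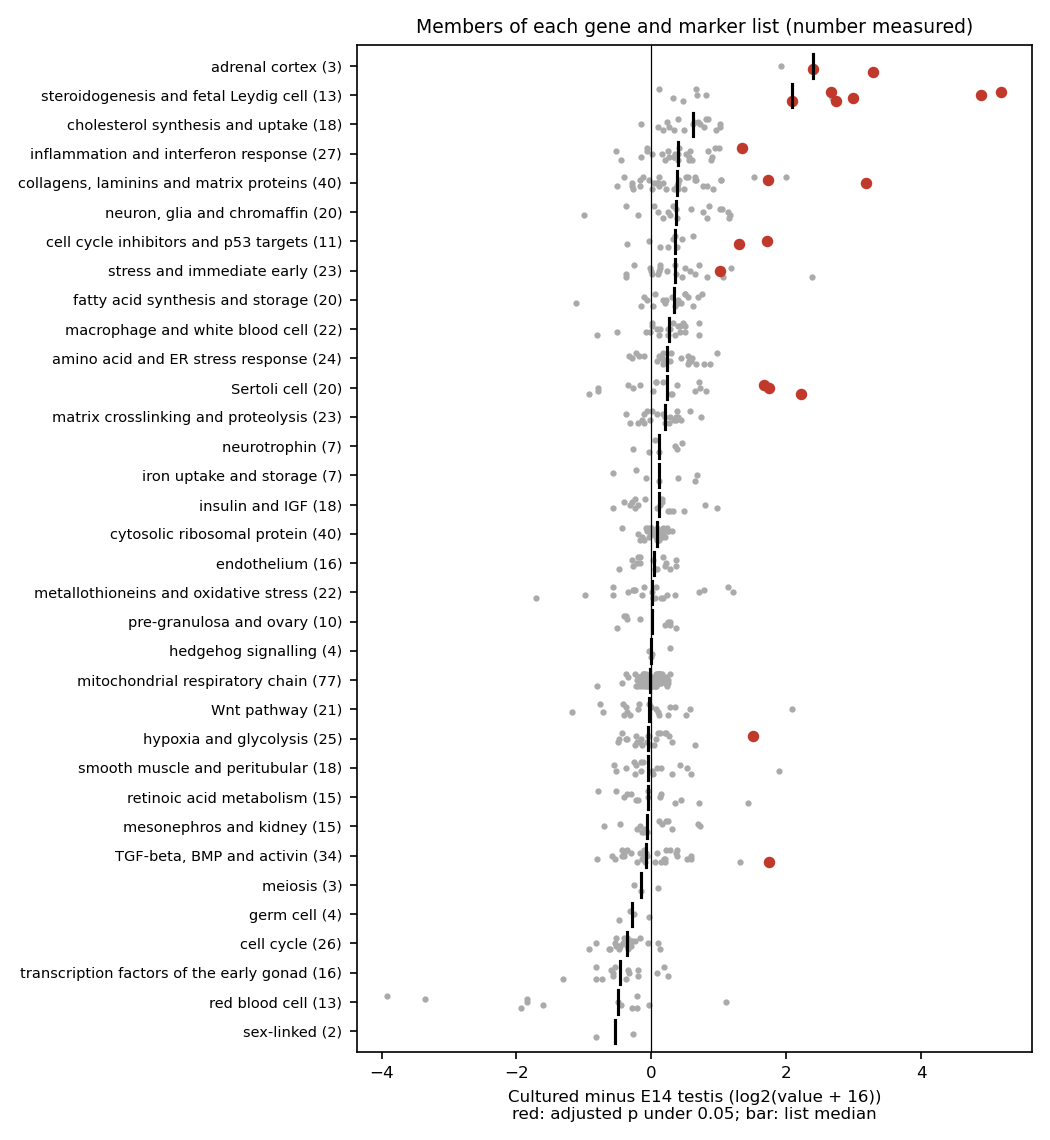
Cultured minus E14 difference on log2(intensity + 16) for each measured member of the 34 gene and marker lists, ordered by median, with the number measured in brackets, members that passed in red and list medians as bars. The adrenal cortex and steroidogenesis lists have medians of 2.39 and 2.08, and every other list median lies between -0.55 and 0.63. The lists were chosen with earlier results of these data known.

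The other lists gave 0 calls in limma's test, and apart from the sex-linked list their medians lay between -0.069 and 0.23. The sex-linked list held Sry and Xist, whose values stand above, with a median of -0.55. That median was -1.22 and 0.13 without cultured replicate 1 or 2, and 0.51 and -1.60 without E14 replicate 1 or 2. For 40 cytosolic ribosomal proteins the median was 0.0845, and 0 had an unadjusted p under 0.05. For 77 genes of the respiratory chain it was -0.014, with 1 lower at that level. Over all probe sets, 5.57% were higher and 2.8% lower at that level. The amino acid and ER stress response (24 genes) stood at 0.23, with 8 members higher before adjustment, against 5.57% of all probe sets. Metallothioneins and oxidative stress (22 genes) stood at 0.017 and iron uptake and storage (7 genes) at 0.12. Among signalling lists, Wnt (21 genes) stood at -0.029, insulin and IGF (18 genes) at 0.11, retinoic acid (15 genes) at -0.055, hedgehog (4 genes) at 0.0023 and neurotrophin (7 genes) at 0.12. Igf2, a fetal growth factor, read 1313 and 1275 in cultured testis and 2057 and 1792 in E14 testis, lower without overlap and without passing (-0.56, adjusted p = 0.515). Among cell lists, endothelium (16 genes) stood at 0.043, smooth muscle and peritubular cells (18 genes) at -0.054, mesonephros and kidney (15 genes) at -0.069 and pre-granulosa cells (10 genes) at 0.017. Apart from the sex-linked list, these medians lay within -0.23 to 0.51 when 1 of the 4 arrays was left out. The amino acid and ER stress, neurotrophin and smooth muscle medians kept their sign. Each of the others changed sign for some 1 of the 4 arrays. Kdr, a receptor of vascular endothelial growth factor, read 142 and 139 in cultured testis and 173 and 171 in E14 testis (-0.27, adjusted p = 0.891), and the groups did not overlap.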

How the data were processed

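Total RNA was measured on 14 Affymetrix arrays in 7 groups of 2, grouped by their titles. The deposited values are linear intensities, 1 per probe set and array; which software the authors summarised them with is not given in the sources used. Each array's mean after trimming 2% at each end was 125, so arrays had been scaled before deposit. Tests used log2(intensity + 16), which understates changes of dim probe sets, in R 4.3.3 with limma 3.58.1 (lmFit and eBayes, 7 groups, 7 residual and 4.16 prior degrees of freedom). Cultured minus E14 testis was tested with Benjamini-Hochberg adjustment over 15866 probe sets, as were cultured minus E16 and E16 minus E14. The script was tested on simulated data.

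The platform annotation gave 12783 probe sets 1 symbol, 312 several and 2771 none. A gene stands for its brightest probe set over all arrays. Named genes were the 15 largest rises and falls that passed without overlap, up to 4 passing members per direction of each of 34 lists (or else the 2 brightest members) and 8 checks. Akr1b7, Lhcgr, Hsd17b3, Th, Dbh, Chga, Chgb, Foxd3, Fgf9, Dcn, Col6a2, Egr1, Hbb and Hbz were added after their values were seen. The comparison and lists were chosen with earlier results of these data known. Alternatives were other offsets (1 and 64), quantile normalization, a mean of at least 50, fits on 4 or 8 arrays, blocks for replicate number, chip series or chip batch, and arrays left out.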

Additional observations from a re-analysis of the deposited data

How the results depend on the processing

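Under 14 other settings, 0 of the 44 calls changed sign, and 2 (Cyp17a1 and a probe set with several symbols) were kept in all. Against 44 calls, of which 97.7% were higher, the count was 24 with an offset of 1, 52 with an offset of 64, 17 with the 8 testis arrays alone and 4 with the 4 arrays alone (100% higher). Chip series as a block gave 72 (86.1% higher) and chip batch as a random block, at a correlation of 0.38, gave 96 (87.5% higher). With a mean of at least 50 the share was 82.5%. Quantile normalization gave 38 calls and moved the median over all probe sets to -0.0053. Without 1 array the count ranged from 13 to 64 and the share from 54.7% to 95.2%, and 10 calls held whichever array was left out. Without both Xist-carrying arrays 26 passed (46.2% higher), a choice made with the earlier results known. The replicate block in the 4 arrays gave 3 calls; same-numbered arrays deviated together at r = 0.167, and 2 pairs are too few to settle a pairing. The replicate number of these arrays is also their chip series, and both replicate 1 arrays share a chip batch. Fits on fewer arrays have fewer degrees of freedom, and the cause of the other shifts was not tested. Against fresh E16 testis, Clu, Postn and Ybx2 each lost their call in 7 settings, Cpa1 in 3, Cyp21a1 in 2 and Cyp11b1 in 0 of the 11 run for it. Signal over background could not be judged from the deposited values, so readings of a few units carry no certain level.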
